A study of Mus musculus with 48 samples.

Results

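Genes of the blood vessel wall were examined in RNA-sequencing data from the hippocampal Cornus Ammonis (CA) of male mice. The set holds 10 genes, of 24421 in the count table, and was chosen by gene symbol: 8 genes of brain endothelial cells (Cldn5, Pecam1, Flt1, Kdr, Tek, Cdh5, Slco1a4 and Abcb1a) and 2 genes of mural cells (Pdgfrb and Acta2). In the study, CB1, the cannabinoid type-1 receptor encoded by Cnr1, was deleted with Cre recombinase from a floxed allele (CB1f/f). Cre was driven by regulatory elements of nex1, known for its activity in glutamatergic neurons of the dorsal telencephalon, in the Glu-CB1 line, and by those of dlx5/6, known for its activity in forebrain GABAergic neurons, in the GABA-CB1 line. The KO mice were compared with their CB1-WT littermates, in the basal (home cage) state or after a 5 min exposure to an open field (OF), at 8 weeks of age by the labels. By the study's text, tissue of the OF mice was isolated after a delay and not directly after the exposure. For the Glu-CB1 line, the basal groups held 5 CB1-WT and 7 KO mice and the OF groups 5 CB1-WT and 7 KO mice, and for the GABA-CB1 line they held 6 and 6 in the basal state and 7 and 5 after OF. The study's text gives the sizes of the GABA-CB1 OF groups the other way round, and the sample labels were followed here. Each of the 48 libraries is 1 mouse. Neither Cre driver is directed at vascular cells, and the whole CA piece was used after the dentate gyrus had been removed, so all cell types of the tissue contributed RNA.

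Endothelial cells line the capillaries of the brain and form the blood-brain barrier, which seals the space between cells with tight junctions and moves solutes by transporters. Mural cells (pericytes on capillaries and smooth muscle cells on larger vessels) wrap the endothelial tube. Signaling by vascular endothelial growth factor (VEGF) and angiopoietin to endothelial receptors, and by platelet-derived growth factor (PDGF) to mural cells, builds and maintains these vessels. Among the 10 genes, Cldn5 encodes the tight junction protein claudin-5, and Cdh5 and Pecam1 encode the adhesion molecules VE-cadherin and CD31. Flt1 and Kdr encode VEGF receptors 1 and 2, and Tek encodes the angiopoietin receptor Tie2. Slco1a4 encodes an organic anion transporter of the barrier, and Abcb1a encodes the efflux pump P-glycoprotein. Pdgfrb encodes the PDGF receptor beta of pericytes, and Acta2 the smooth muscle alpha-actin.

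In the mm10 coordinates of the count table, 3 of the genes lie on chromosome 5: Kdr at chr5:75933270-75978428, Flt1 at chr5:147562196-147725988, both on the minus strand, and Abcb1a at chr5:8660092-8748570 on the plus strand. Cldn5 is at chr16:18776847-18778262, Tek at chr4:94739289-94874976 and Cdh5 at chr8:104101625-104144502, all on the plus strand. Pecam1 is at chr11:106654213-106715281, Slco1a4 at chr6:141805440-141856171 and Acta2 at chr19:34240336-34255373, all on the minus strand. No other gene of the table overlaps an exon of the 10. RefSeq promoter windows of GRCm38.p6, from 250 bases before to 50 after a gene start, were at hand for 7 of the 10 genes. Both VEGF receptors and both transporters are shown, since the levels of each pair moved together from mouse to mouse. Capitals mark each GGAA and, on the other strand, TTCC, the core bound by ETS factors, a family known to act in endothelial cells.
Flt1 (chr5:147725962-147726261, minus strand): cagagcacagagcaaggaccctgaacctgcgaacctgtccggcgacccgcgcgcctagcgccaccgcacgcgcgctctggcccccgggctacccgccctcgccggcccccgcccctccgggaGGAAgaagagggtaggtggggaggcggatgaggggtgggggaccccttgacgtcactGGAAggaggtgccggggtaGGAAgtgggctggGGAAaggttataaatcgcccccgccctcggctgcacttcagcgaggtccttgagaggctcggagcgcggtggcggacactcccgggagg
Kdr (chr5:75978406-75978705, minus strand): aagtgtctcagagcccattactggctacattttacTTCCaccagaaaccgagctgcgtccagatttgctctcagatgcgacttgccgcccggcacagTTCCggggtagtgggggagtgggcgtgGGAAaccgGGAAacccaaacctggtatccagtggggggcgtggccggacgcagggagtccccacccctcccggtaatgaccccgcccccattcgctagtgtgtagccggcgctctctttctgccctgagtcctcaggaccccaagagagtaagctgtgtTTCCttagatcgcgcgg
Slco1a4 (chr6:141856171-141856470, minus strand): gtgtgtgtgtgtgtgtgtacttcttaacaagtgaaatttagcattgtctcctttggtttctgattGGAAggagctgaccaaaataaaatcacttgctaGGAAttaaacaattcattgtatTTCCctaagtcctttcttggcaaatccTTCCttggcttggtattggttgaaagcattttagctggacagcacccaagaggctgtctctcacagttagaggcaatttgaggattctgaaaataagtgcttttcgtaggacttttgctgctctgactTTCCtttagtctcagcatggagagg
Abcb1a (chr5:8566841-8567140, plus strand): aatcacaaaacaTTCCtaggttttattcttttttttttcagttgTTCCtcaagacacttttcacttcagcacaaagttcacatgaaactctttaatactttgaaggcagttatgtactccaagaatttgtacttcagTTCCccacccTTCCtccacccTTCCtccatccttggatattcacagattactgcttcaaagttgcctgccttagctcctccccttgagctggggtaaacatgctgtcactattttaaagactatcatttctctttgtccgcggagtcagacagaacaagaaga
The core occurred 4 times in the window of Flt1 and 5 times in each of the windows of Kdr, Slco1a4 and Abcb1a, on either strand. It occurred in 96.0% of all 32851 promoter windows, with a median of 3, so its presence does not set these promoters apart. The pairs differed in CG dinucleotides. The windows of Flt1 and Kdr held 29 and 19, those of Slco1a4 and Abcb1a 1 and 2, and the median over all windows was 7. The windows not printed held 3 (Tek), 6 (Acta2) and 12 (Cldn5). Whether the number of CG goes with the correlation of levels was not tested. The window of Abcb1a lies 93001 bases upstream of the gene start in the count table, and thus belongs to an upstream RefSeq start.

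Library totals lay between 25892654 and 34091080 counts. Cnr1, the targeted gene, did not overlap between genotypes within any line and state, with KO levels of 204 to 249 CPM (counts relative to the library total, normalized by TMM) against 330 to 412 in the Glu-CB1 line, and 100 to 158 against 311 to 394 in the GABA-CB1 line. GABA-CB1-KO OF replicate 1 stood apart in endothelial genes. All 8 endothelial members had their lowest level of the group in it, with a median log2 difference of -0.59 to the other mice of the group, and 4 (Slco1a4, Flt1, Abcb1a and Tek) had their lowest level of all 48 libraries, against 3.36% of all genes tested. Among 35 other endothelial genes, 26 were lowest of the group in this library, against 20.1% of all genes tested. The library was singled out after its levels had been seen, and the members varied together between mice. These counts therefore describe the library and are no test. Of the 2 mural members, Acta2 was lowest of the group in this library. Pdgfrb (28.6 CPM) was not, and neither was lowest of all 48 libraries. The library's total of 31154739 counts was within the range of the others. GABA-CB1-KO OF replicate 4 had the highest level of its group in each of the 10 members, and 118028 counts of Ttr, the transthyretin gene of the choroid plexus. The share of all genes highest of the group in replicate 4 was not counted. Ttr was also above 5000 counts in Glu-CB1-KO basal replicate 6 (18844), Glu-CB1-KO OF replicate 4 (7562) and GABA-CB1-WT basal replicate 3 (44793).

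All 10 genes were measured in every library. The lowest count of a member in a library was 211 (Acta2) and the highest 2344 (Slco1a4). Levels of different genes were compared per kilobase of exon. On this scale the transporter Slco1a4 was highest, with 16.4 ± 2.02 CPM per kilobase (mean ± SD over 48 libraries), followed by Cldn5 with 10.5 ± 2.02. Flt1 came next with 7.66 ± 1.17 CPM per kilobase. It was followed by Abcb1a with 5.84 ± 0.67, Pdgfrb with 5.31 ± 0.50, Pecam1 with 4.88 ± 0.70 and Acta2 with 4.59 ± 1.04 CPM per kilobase. The lowest were the receptors Tek (3.17 ± 0.43 CPM per kilobase) and Kdr (2.68 ± 0.50) and the cadherin Cdh5 (2.92 ± 0.44). The upper steps of this order were seen in nearly every mouse: Slco1a4 was above Cldn5 in 47 libraries, Cldn5 above Flt1 in 48, and Flt1 above Abcb1a in 47. Within the middle group the neighbors overlapped, with Abcb1a above Pdgfrb in 37 libraries, Pdgfrb above Pecam1 in 35 and Pecam1 above Acta2 in 36. Acta2 was above Tek in all 48, Tek above Cdh5 in 40 and Cdh5 above Kdr in 35. Among the VEGF receptors, Flt1 was therefore well above Kdr per length. The spread over all libraries was smallest for Pdgfrb (coefficient of variation 9.41%) and largest for Acta2 (22.5%). Near-identical sequence of the paralogs Abcb1b, of other Slco1a genes and of other actins could take up or share reads of Abcb1a, Slco1a4 and Acta2, so their absolute levels are less certain.

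**Figure D1:**
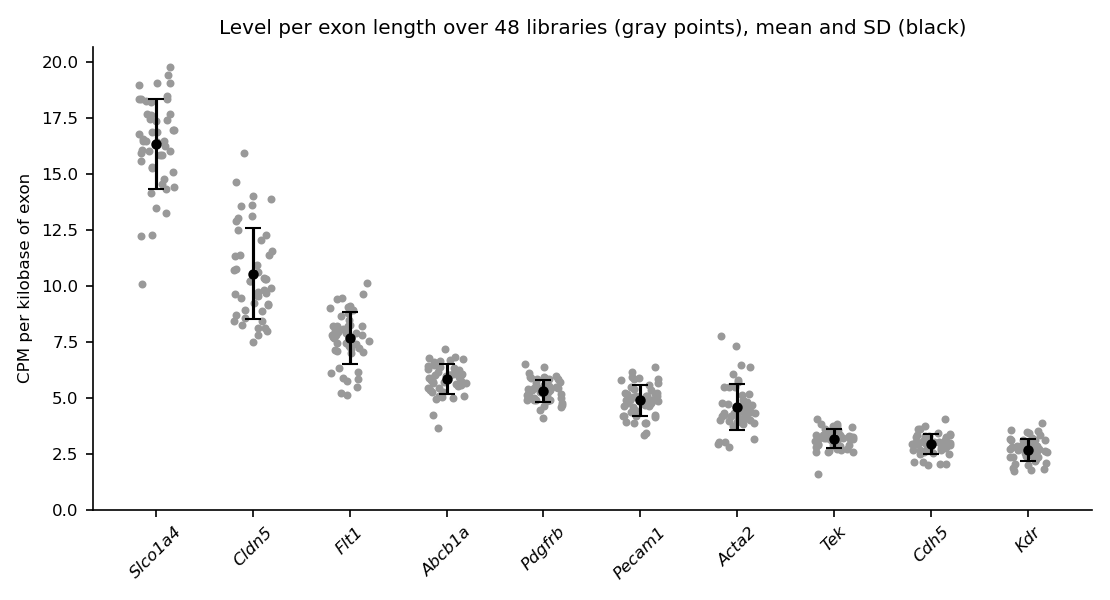
Level of the 10 endothelial and mural genes per exon length, in CPM per kilobase, in 48 libraries (gray points), with mean and SD (black). Slco1a4 (16.4) and Cldn5 (10.5) are highest, and Tek, Cdh5 and Kdr lie near 3.17, 2.92 and 2.68.

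Over the 8 groups, the members moved little. The ratio of the highest to the lowest group mean was between 1.12 and 1.36 for the 10 genes. Of the 10, 8 had their highest group mean in GABA-CB1-WT basal mice, with Cldn5 (highest in Glu-CB1-KO basal) and Acta2 (highest in GABA-CB1-KO basal) as exceptions. All 10 had their lowest group mean in an OF group, and for 9 this was an OF group of the Glu-CB1 line. Group means after OF were below those of the basal state for 8 members in all 4 pairs of line and genotype. For Cldn5 and Kdr they were below in 3 of 4, GABA-CB1-KO being the exception. Some of these steps were close to none: in GABA-CB1-WT mice the OF means were 99.9% (Tek), 99.7% (Pecam1), 99.5% (Slco1a4) and 99.4% (Flt1) of basal. The share of all genes below in all 4 pairs was not counted. Sums over genes are given in CPM of the raw library total, without TMM. The summed level of the 8 endothelial members was 175 to 264 CPM in Glu-CB1-WT basal mice, with a median of 215, and 153 to 222 with a median of 202 after OF. The same sum was 188 to 239 CPM with a median of 217 in Glu-CB1-KO basal mice, and 175 to 221 with a median of 190 after OF. GABA-CB1-WT mice had medians of 229 (basal) and 225 CPM (OF), and GABA-CB1-KO mice 219 and 205. The range of this sum was widest in GABA-CB1-KO OF mice, from 139 CPM in replicate 1 to 269 in replicate 4. In bulk tissue, fewer vascular cells and less RNA of a gene per cell cannot be told apart.

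**Figure D2:**
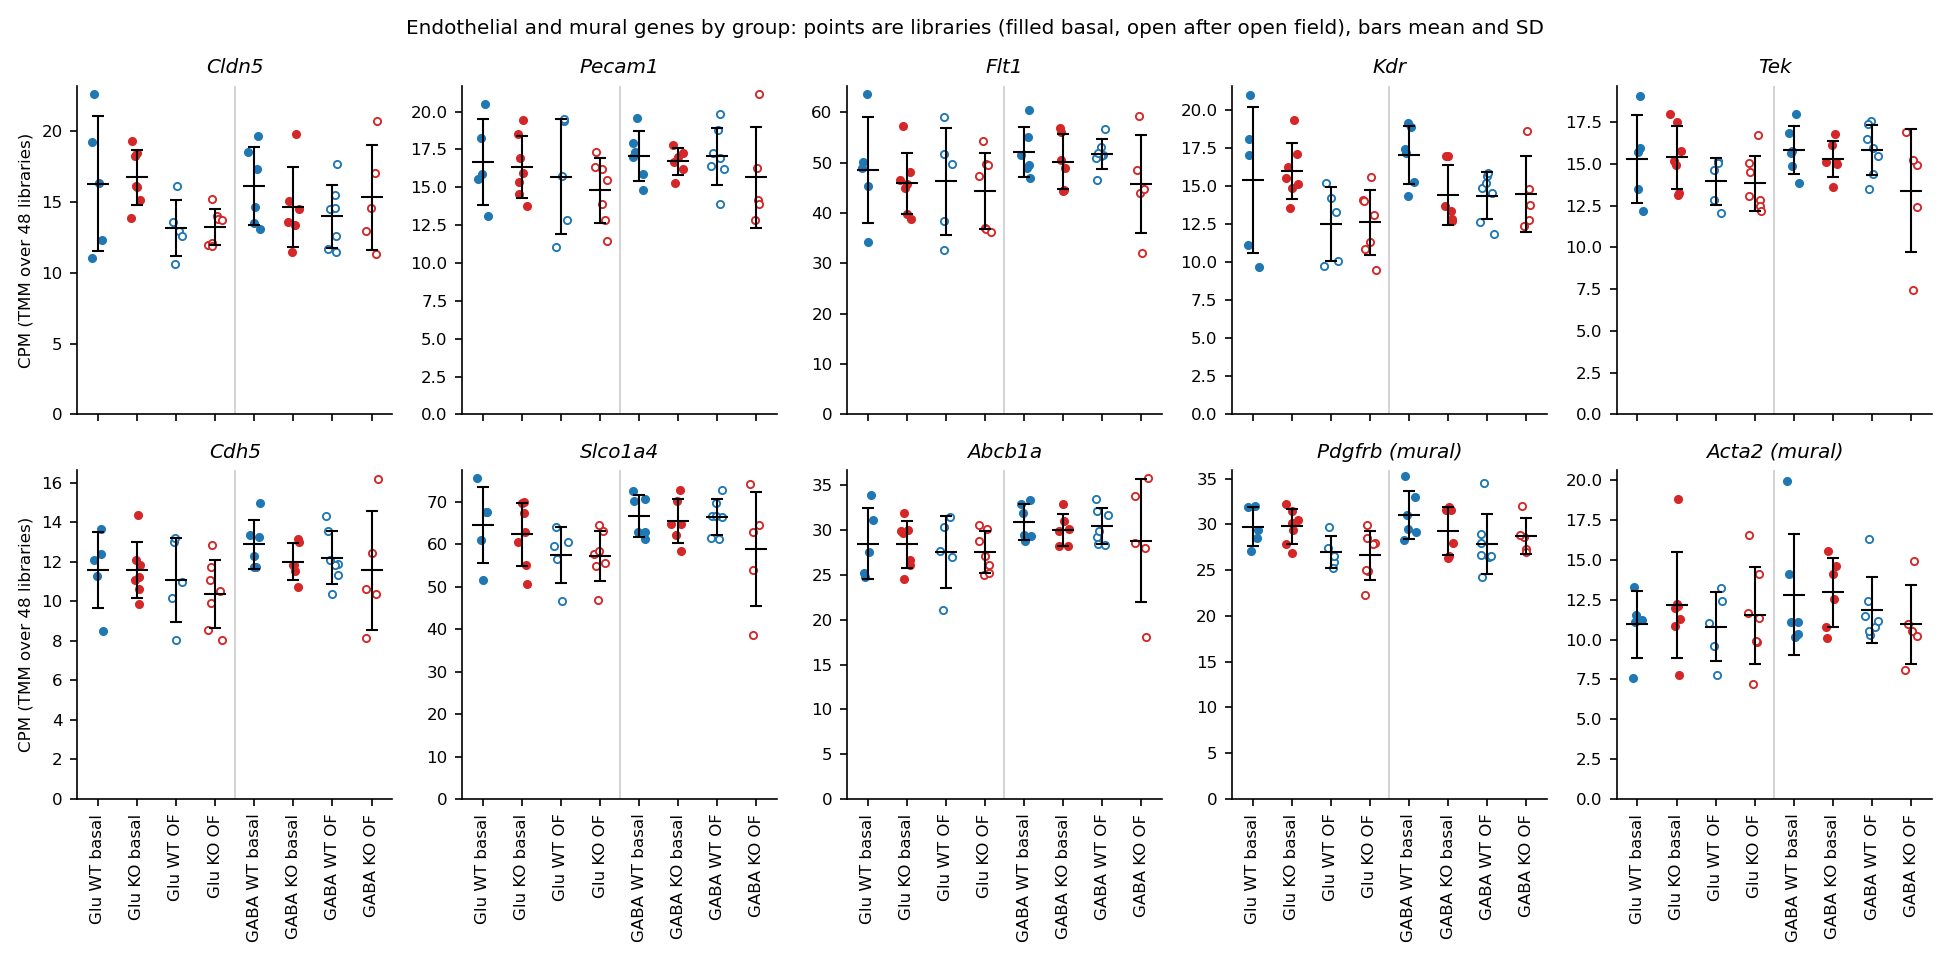
CPM of the 10 genes by group, with a point for each library (blue CB1-WT, red KO, filled basal, open after OF) and bars for mean and SD. In the Glu-CB1 line (left of each panel) the OF points of Cldn5 lie at 10.6 to 16.1 CPM and the basal points reach 22.6, and GABA-CB1-KO OF replicate 1 is the low open red point of Tek (7.48 CPM).

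The first comparison asked whether the vascular genes differed between the OF and the basal state, with genotype in the model. In the Glu-CB1 line all 10 members were lower after OF, with a median log2 difference of -0.13 and a range from -0.32 (Cldn5) to -0.047 (Abcb1a), but none passed the test (edgeR's quasi-likelihood test, Benjamini-Hochberg adjusted p under 0.05 over all genes). Of all 15355 genes tested, 1.8% passed it, and 0.469% passed as lower. The median over all genes tested was -0.004, with 8169 of them lower. The members varied together between mice, with a median r of 0.60 for endothelial pairs, so their directions are not separate results. At an unadjusted p under 0.05, 5 of the 10 members were lower, against 13.9% of all genes in either direction, and 3 of 10 without the libraries with over 5000 Ttr counts or with the range of the animal numbers as covariate. This count was also 3 without any 1 of Glu-CB1-WT basal replicates 4 and 5, Glu-CB1-KO basal replicates 4 and 6, Glu-CB1-WT OF replicate 1 and Glu-CB1-KO OF replicates 2 and 3. For all genes, the share at this unadjusted p was not counted in these alternative fits.

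Cldn5, the tight junction gene, had 11, 22.6, 12.3, 16.4 and 19.2 CPM in the 5 Glu-CB1-WT basal mice and 10.6, 16.1, 13, 12.6 and 13.6 in the 5 Glu-CB1-WT OF mice. Glu-CB1-KO mice had 13.9 to 19.3 CPM of Cldn5 (median 16.1) in the basal state and 11.9 to 15.2 (median 13.7) after OF. The basal CB1-WT mice were spread widely and included 2 as low as the OF mice, while the KO groups overlapped only in part. Cldn5 was lower by a log2 difference of -0.32 (SE 0.091, adjusted p = 0.0629, edgeR).

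Kdr, the main signaling receptor for VEGF, had 9.66, 18.1, 11.1, 17.1 and 21 CPM in Glu-CB1-WT basal mice and 10.1, 15.2, 14.2, 13.3 and 9.77 in Glu-CB1-WT OF mice. In Glu-CB1-KO mice its level was 13.6 to 19.3 CPM (median 15.5) in the basal state and 9.51 to 15.6 (median 13.1) after OF. The same basal CB1-WT mice, replicates 1 and 3, were low for Kdr and for Cldn5. Kdr was lower by -0.32 on the log2 scale (SE 0.11, adjusted p = 0.127, edgeR).

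Pdgfrb, the pericyte receptor, varied less. It had 27, 31.9, 29.3, 28.6 and 32 CPM in Glu-CB1-WT basal mice and 25.9, 25.2, 26.6, 27.4 and 29.7 in Glu-CB1-WT OF mice. Glu-CB1-KO mice had 26.9 to 32.3 CPM of Pdgfrb (median 30.2) in the basal state and 22.3 to 29.9 (median 27.8) after OF. Most OF mice lay below most basal mice, with overlap in both genotypes. The log2 difference was -0.15 (SE 0.044, adjusted p = 0.0702, edgeR).

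Slco1a4 and Tek were lower by smaller amounts relative to their spread. The transporter Slco1a4 had 61.0, 51.5, 67.6, 67.5 and 75.6 CPM in Glu-CB1-WT basal mice and 46.7, 56.5, 64.1, 60.5 and 59.6 in Glu-CB1-WT OF mice. Its level in Glu-CB1-KO mice was 50.7 to 70.1 CPM (median 62.9) in the basal state and 46.9 to 64.6 (median 57.8) after OF. The groups overlapped over most of their range, with a log2 difference of -0.14 (SE 0.064, adjusted p = 0.320, edgeR). Tek, the angiopoietin receptor, had 12.2, 15.9, 13.5, 15.7 and 19.1 CPM in Glu-CB1-WT basal mice and 12.1, 15.1, 15, 14.7 and 12.8 in Glu-CB1-WT OF mice. Glu-CB1-KO mice had 13.2 to 18 CPM of Tek (median 15.2) in the basal state and 12.2 to 16.8 (median 13.1) after OF. Here, too, the groups overlapped (log2 difference -0.14, SE 0.069, adjusted p = 0.352, edgeR). The other 5 members had differences from -0.12 (Pecam1 and Cdh5) to -0.047, with adjusted p of at least 0.598.

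Single libraries moved these calls. Of 24 fits without 1 library, Cldn5 and Pdgfrb each passed the test in 3 and Kdr in 1. The largest adjusted p in these fits was 0.111 for Cldn5, 0.124 for Pdgfrb and 0.222 for Kdr (edgeR). Without Glu-CB1-WT basal replicate 1, which was low in Cldn5 and Kdr, Cldn5 (-0.37, adjusted p = 0.0179), Pdgfrb (-0.17, adjusted p = 0.0418) and Kdr (-0.37, adjusted p = 0.0437) passed the test. Cldn5 also passed without Glu-CB1-WT basal replicate 3 (adjusted p = 0.0286) and without Glu-CB1-WT OF replicate 2 (adjusted p = 0.0478), and Pdgfrb without Glu-CB1-WT OF replicate 5 (adjusted p = 0.0418) or Glu-CB1-KO OF replicate 3 (adjusted p = 0.0383). With DESeq2 in place of edgeR, Cldn5 (adjusted p = 0.0207) and Pdgfrb (adjusted p = 0.0288) passed. Without the libraries with over 5000 Ttr counts, 9 of 10 were lower, and the smallest adjusted p of a member was 0.139.

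In the GABA-CB1 line the 10 members were also all lower after OF, with a median log2 difference of -0.075 and a range from -0.17 (Acta2) to -0.038 (Abcb1a). Of all 15374 genes tested, 7747 were lower. No member passed the test, against 0.963% of all genes (0.202% as lower), and the smallest adjusted p was 0.500 (Pdgfrb, edgeR). None reached an unadjusted p under 0.05, against 12.1% of all genes, and DESeq2 called none either. Among the fits without 1 library, those without GABA-CB1-KO OF replicate 1 or 4 gave the ends of the range of the members' median. The median of the members was -0.020 without replicate 1, with 9 of 10 lower and 0 at an unadjusted p under 0.05. It was -0.12 without replicate 4, with 10 of 10 lower and 2 at an unadjusted p under 0.05, and -0.13 without the libraries with over 5000 Ttr counts, with 10 of 10 lower and 3 at an unadjusted p under 0.05. Without GABA-CB1-WT OF replicate 1 the count at an unadjusted p under 0.05 was also 2. No member passed the test in these fits, in which the share of all genes at an unadjusted p under 0.05 was not counted. The response to OF did not differ detectably between lines for any member. The difference (Glu-CB1 minus GABA-CB1) was -0.25 for Cldn5 (SE 0.14) and -0.19 for Kdr (SE 0.14), and it was between -0.078 and 0.11 for the other 8, with an adjusted p of 0.9999 for all 10 (edgeR). In that test no gene of 15570 passed (0%), with 296 at an unadjusted p under 0.05.

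The 24 OF and the 24 basal libraries of both lines were then compared in a model with line, genotype and their interaction. This comparison was added after the results by line had been seen, and the same libraries enter it, so it is no independent evidence. Pdgfrb and Kdr passed the test as lower, 2 of 10 members, against 3.23% of all 15570 genes (9.12% in either direction). For Pdgfrb, the GABA-CB1-WT mice had 28.3 to 35.2 CPM (median 30.2) in the basal state and 24.2 to 34.5 (median 26.6) after OF. GABA-CB1-KO mice had 26.3 to 31.9 CPM of Pdgfrb (median 29.7) in the basal state, and 28.6, 27.3, 26.9, 32 and 28.8 in the 5 OF mice. Of the 7 CB1-WT OF mice, 5 lay below every CB1-WT basal mouse, while the KO groups overlapped widely. Over both lines Pdgfrb fell by 0.13 on the log2 scale (SE 0.035, adjusted p = 0.0151, edgeR), and it passed the test in all 48 fits without 1 library.

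Kdr had 14.3 to 19.2 CPM (median 17.3) in GABA-CB1-WT basal mice and 11.9 to 15.8 (median 14.8) in GABA-CB1-WT OF mice. GABA-CB1-KO mice had 12.7 to 17 CPM of Kdr (median 13.5) in the basal state and 12.4, 13.8, 12.8, 18.6 and 14.8 after OF. Every CB1-WT OF mouse was thus below 4 of the 6 CB1-WT basal mice, whereas the KO groups covered the same range, OF replicate 4 being the highest. Over both lines Kdr fell by 0.23 on the log2 scale (SE 0.069, adjusted p = 0.0280, edgeR), and it passed in 47 of the 48 fits without 1 library, the exception being Glu-CB1-WT basal replicate 5 (adjusted p = 0.0502).

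Cldn5 had 13.1 to 19.6 CPM (median 16) in GABA-CB1-WT basal mice and 11.5 to 17.7 (median 14.5) in GABA-CB1-WT OF mice. In GABA-CB1-KO mice it had 11.5 to 19.8 CPM (median 14) in the basal state and 11.3, 14.6, 17.1, 20.7 and 12.9 after OF. The KO groups covered the same range, and over both lines the difference of -0.20 (SE 0.072) missed the threshold (adjusted p = 0.0710, edgeR). Cldn5 passed in 5 of the 48 fits without 1 library, and the largest adjusted p of these fits was 0.121 (edgeR). It passed without GABA-CB1-KO OF replicate 4 (adjusted p = 0.0222), without Glu-CB1-WT basal replicate 1 (0.0409) or 3 (0.0498), without GABA-CB1-KO basal replicate 1 (0.0439) and without GABA-CB1-WT OF replicate 5 (0.0447). Slco1a4 had 61.2 to 72.5 CPM (median 66.6) and 61.2 to 72.8 (median 66.6) in GABA-CB1-WT basal and OF mice. GABA-CB1-KO mice had 58.5 to 72.9 CPM of Slco1a4 (median 64.8) in the basal state and 38.5, 62.9, 64.5, 74.2 and 54.0 after OF. The CB1-WT groups covered the same range, while of the 5 KO OF mice replicates 1 and 5 lay below and replicate 4 above every KO basal mouse. Over both lines the difference was -0.11 (SE 0.048, adjusted p = 0.169, edgeR). Tek had 13.8 to 18 CPM (median 15.7) and 13.5 to 17.6 (median 15.9) in GABA-CB1-WT basal and OF mice. GABA-CB1-KO mice had 13.6 to 16.8 CPM of Tek (median 15.1) in the basal state and 7.48, 14.9, 12.4, 16.9 and 15.2 after OF. Replicate 1 alone lay far below, and over both lines the difference was -0.12 (SE 0.056, adjusted p = 0.214, edgeR). Without GABA-CB1-KO OF replicate 1 or without the libraries with over 5000 Ttr counts, Kdr and Pdgfrb passed the test, and in the latter case Cldn5 did as well (adjusted p = 0.0388). Library numbers run in blocks of line and state, with OF after basal in each line. The OF exposure and the order of these numbers therefore cannot be told apart. The study states that libraries of all experimental groups were pooled for sequencing. Which library was in which pool is not given in the sources used here.

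**Figure D3:**
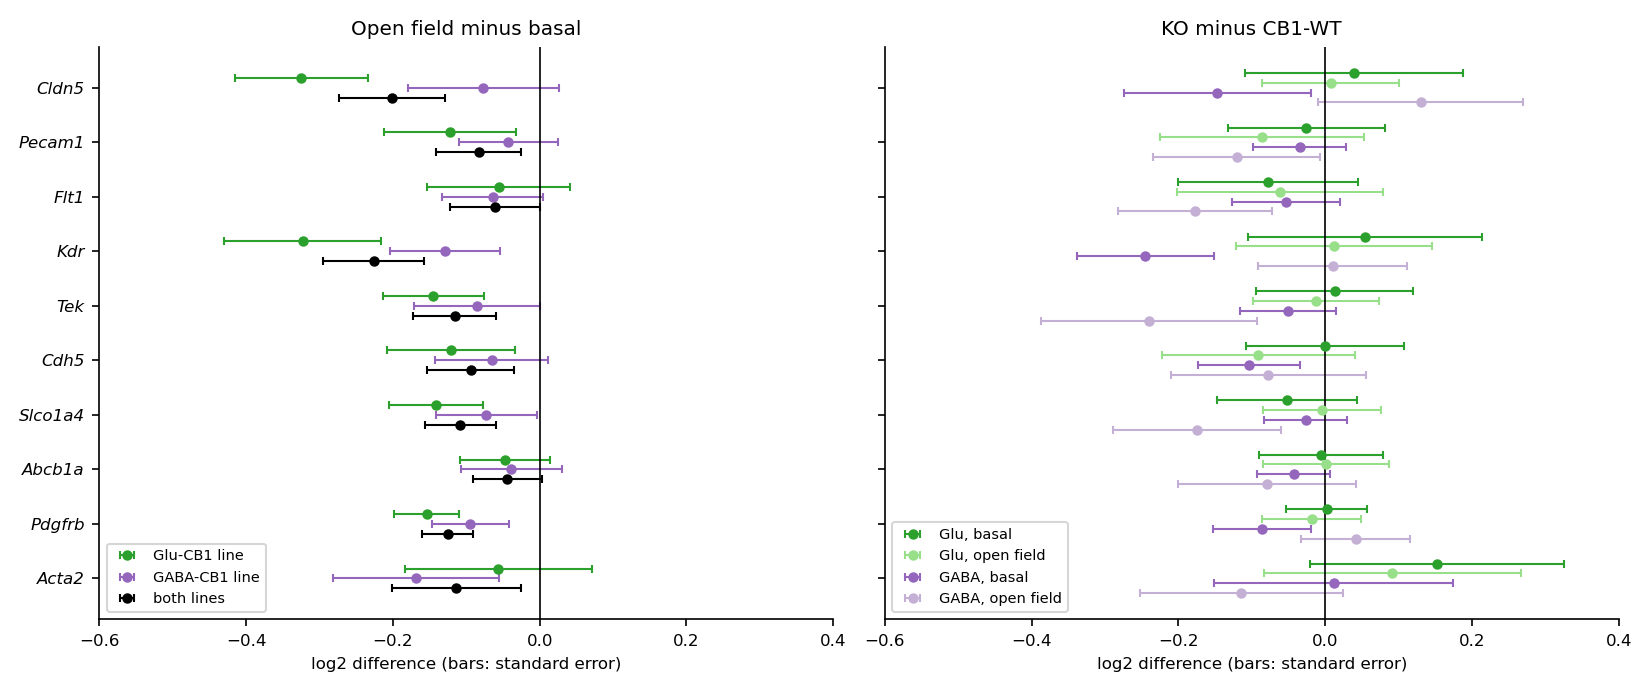
Log2 differences of the 10 genes with standard errors, OF minus basal by line and over both lines (left panel) and KO minus CB1-WT by line and state (right panel). All points on the left lie below 0, Cldn5 and Kdr lowest in the Glu-CB1 line (both -0.32), while on the right the 4 contrasts scatter on both sides of 0, between -0.25 and 0.15.

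Other cell type genes of the tissue were read beside this, with their levels in CPM of the raw library total, without TMM. In the Glu-CB1 line all 10 genes of perivascular and meningeal fibroblasts were lower after OF (median log2 difference -0.13, 0 passing the test), and their summed level was 142 to 211 CPM in CB1-WT basal and 140 to 170 in CB1-WT OF mice, and 161 to 214 and 166 to 220 in the KO groups. Over both lines 10 of these 10 were lower, with none passing. None of the fibroblast genes was at 0. Of 10 choroid plexus genes 7 were lower in the Glu-CB1 line and 8 higher in the GABA-CB1 line after OF, none passing, with sums of 203 to 1066 CPM over the Glu-CB1 basal, 214 to 594 over the Glu-CB1 OF, 222 to 2399 over the GABA-CB1 basal and 232 to 5519 over the GABA-CB1 OF mice. Genes of CA pyramidal neurons were balanced over both lines, with 5 higher and 5 lower (median 0.002). Of 9 astrocyte genes 5 were lower over both lines (median -0.007), and Sox9, a transcription factor of astrocytes, fell by 0.22 (SE 0.036, adjusted p = 4.39e-05, edgeR). Microglial genes had 8 of 10 lower (median -0.024, none passing), and dentate granule cell genes 6 of 6 lower (median -0.11, none passing). Of 6 blood genes, 5 hemoglobin genes were listed at 0 in every library, and Alas2, the heme synthesis enzyme of red blood cell precursors, had 0.770 to 2.35 CPM and fell by 0.30 over both lines (SE 0.099, adjusted p = 0.0433, edgeR). The part of these cell types in the members' differences was not tested.

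The next comparisons asked whether loss of CB1 from either neuron type was accompanied by a difference in vascular genes. In none of the 4 comparisons of KO and CB1-WT mice did a member pass the test. All genes passed at a rate of 0.0198% in the Glu-CB1 basal, 0.272% in the Glu-CB1 OF, 0.245% in the GABA-CB1 basal and 0.0199% in the GABA-CB1 OF comparison, so 0 of 10 is near these shares. In Glu-CB1 basal mice the members' log2 differences were -0.078 (Flt1) to 0.15 (Acta2), with 5 higher and 5 lower. In Glu-CB1 OF mice they were -0.091 (Cdh5) to 0.092 (Acta2), with 4 higher and 6 lower. Their standard errors were 0.055 to 0.175 in these comparisons, so a difference of this size was within the error. No member reached an unadjusted p under 0.05 in either state of this line, where 3.57% (basal) and 6.97% (OF) of all genes did. With the range of the animal numbers as covariate, 1 member did in the basal state, and 2 of 10 were lower (median 0.086). The share of all genes was not counted in that fit.

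In GABA-CB1 basal mice 9 of 10 members were lower in the KO (median log2 difference -0.052), and Kdr alone had an unadjusted p under 0.05, as 8.16% of all genes did. Kdr had 14.3 to 19.2 CPM (median 17.3) in the 6 CB1-WT mice and 12.7 to 17 (median 13.5) in the 6 KO mice, so 4 of the KO mice lay below every CB1-WT mouse and 2 among them. Its log2 difference was -0.25 (SE 0.093, adjusted p = 0.523, edgeR). In GABA-CB1 OF mice, 7 of 10 members were lower in the KO (median -0.097), from -0.24 (Tek) to 0.13 (Cldn5), with 0 at an unadjusted p under 0.05 against 13.2% of all genes. This median turned to 0.001 without GABA-CB1-KO OF replicate 1, with 5 lower and 0 at an unadjusted p under 0.05. Without replicate 4, the only library of this comparison with over 5000 Ttr counts, it was -0.24, with 10 lower and 5 of 10 at an unadjusted p under 0.05, none of them passing the test. With both states in 1 model, all 10 members were lower in GABA-CB1-KO mice (median -0.084, from -0.14 for Tek to -0.011 for Cldn5), and none passed the test (smallest adjusted p = 0.725, edgeR), against 0.358% of all genes. Of all 15374 genes tested, 7549 were lower. None of the 10 members had an unadjusted p under 0.05. Single libraries moved this in both directions: without replicate 1 of the GABA-CB1-KO OF group 8 were lower, with a median of -0.040 and 0 at an unadjusted p under 0.05, and without replicate 4 of that group 10 were lower, with a median of -0.14 and 6 at an unadjusted p under 0.05. Without the libraries with over 5000 Ttr counts, 10 were lower, with a median of -0.14 and 5 at an unadjusted p under 0.05, and none passed the test in any of these fits. Replicate 4 was the highest of its group in all 10 members, so leaving it out lowers their KO levels. The share of all genes at an unadjusted p under 0.05 was not counted in the fits without libraries. The model of both states in the Glu-CB1 line had 4 higher and 6 lower, from -0.070 (Flt1) to 0.12 (Acta2), and none passed, against 0.274% of all genes. With the range of the animal numbers as covariate, 0 of 10 were lower there (median 0.027).

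The genotype effect was also compared between states and lines. No member passed for the change of the genotype effect with state, where no gene passed in either line (0%, with 379 genes at an unadjusted p under 0.05 in the Glu-CB1 and 2237 in the GABA-CB1 line, edgeR; DESeq2 called 0 and 63). The largest values of this change were those of Cldn5 (0.28, SE 0.20) and Kdr (0.26, SE 0.15) in the GABA-CB1 line. For the difference between lines (Glu-CB1 minus GABA-CB1), 0 of 10 members passed in the basal state, against 0.279% of all genes, and 0 of 10 after OF, against 0.568%. The largest of these differences were Kdr in the basal state (0.30, SE 0.20) and Tek after OF (0.225, SE 0.18).

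CB1-WT mice of the lines were compared as well, with state in the model. All 10 members were higher in the GABA-CB1 line, from 0.039 (Cldn5) to 0.18 (Acta2), with a median log2 difference of 0.13, but no gene of 15350 passed the test (0%), and 593 genes had an unadjusted p under 0.05 (edgeR; DESeq2 called 0). Of all genes tested, 7418 were higher in the GABA-CB1 line. The transporters Abcb1a and Slco1a4 were the members with an unadjusted p under 0.05. This count was 0 without Glu-CB1-WT basal replicate 2 or OF replicate 1, and 6 without Glu-CB1-WT basal replicate 5. For all genes it was not counted in these fits. Abcb1a had 24.7, 25.3, 33.9, 27.5 and 31.2 CPM in Glu-CB1-WT basal mice and 21.1, 30.4, 31.4, 27 and 27.7 in Glu-CB1-WT OF mice. In GABA-CB1-WT mice Abcb1a had 28.8 to 33.3 CPM (median 30.7) in the basal state and 28.3 to 33.5 (median 29.9) after OF. Every GABA-CB1-WT mouse was thus above 6 of the 10 Glu-CB1-WT mice. The log2 difference was 0.13 for Abcb1a (SE 0.058) and 0.13 for Slco1a4 (SE 0.057), both with an adjusted p of 0.9999 (edgeR). Slco1a4, with the values given above, was below 61.2 CPM, the lowest GABA-CB1-WT level, in 6 of 10 Glu-CB1-WT mice. Genes of fibroblasts (9 of 10 higher, median 0.12) and of the choroid plexus (9 of 10 higher, median 0.42) differed in the same direction, and their part was not tested. The members' median was as large without the libraries with over 5000 Ttr counts (0.13). Line and library number cannot be told apart.

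How the members varied together was examined from the deviations of log2 CPM from the group mean in the 48 libraries, which share depth and dissection. The 45 pairs were tested by permutation within groups (100000 resamples, two-sided), and 38 passed for Pearson's r and 34 for Spearman's rho at an adjusted p under 0.05. The 28 endothelial pairs had a median r of 0.60, from 0.19 to 0.88, and 24 of them passed for r and 21 for rho. The highest values joined the adhesion molecules and the VEGF receptor Flt1. Flt1 and Cdh5 had r = 0.88 and rho = 0.84 (adjusted permutation p = 3.21e-05 for both), and r = 0.84 without the 2 libraries farthest from the median. Pecam1 correlated with Cdh5 at r = 0.86 (rho = 0.81) and with Flt1 at r = 0.86 (rho = 0.84), with the same p, and at 0.82 and 0.83 without the 2 farthest libraries. The VEGF receptors Flt1 and Kdr had r = 0.85 and rho = 0.88 (adjusted permutation p = 3.21e-05), r = 0.87 without the 2 farthest, and r = 0.90 and 0.75 within the Glu-CB1 and the GABA-CB1 line. These are the smallest p-values that the permutations can give.

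The transporters formed another pair. Slco1a4 and Abcb1a had r = 0.84 and rho = 0.76 (adjusted permutation p = 3.21e-05), and r = 0.74 and 0.92 within the Glu-CB1 and the GABA-CB1 line. GABA-CB1-KO OF replicate 1 lay at the low end of this pair, and r was 0.78 without it and 0.74 without the 2 farthest libraries. Between the transporters and Kdr the relation was weak, with r = 0.19 for Slco1a4 (rho = 0.15, adjusted permutation p = 0.283 and 0.391) and r = 0.24 for Abcb1a (rho = 0.18, adjusted permutation p = 0.184 and 0.324). Several relations of the transporters rested on few libraries: Tek correlated with Slco1a4 at r = 0.57 and with Abcb1a at r = 0.60 (rho = 0.38 and 0.39), but at 0.31 and 0.32 without the 2 farthest libraries. The smooth muscle gene Acta2 moved with endothelial genes, most with Cdh5 (r = 0.80, rho = 0.81, adjusted permutation p = 3.21e-05, 0.78 without the 2 farthest libraries). Pdgfrb moved less with the others. It had r = 0.43 with Acta2 (rho = 0.43, adjusted permutation p = 0.00585 and 0.00962, 0.38 without the 2 farthest libraries), and 0.22 and 0.67 within the Glu-CB1 and the GABA-CB1 line. With the transporters Pdgfrb had r = 0.044 (Slco1a4) and 0.059 (Abcb1a), with adjusted permutation p of 0.758 and 0.689. That the pairs of high r differ from those of low r was not tested.

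**Figure D4:**
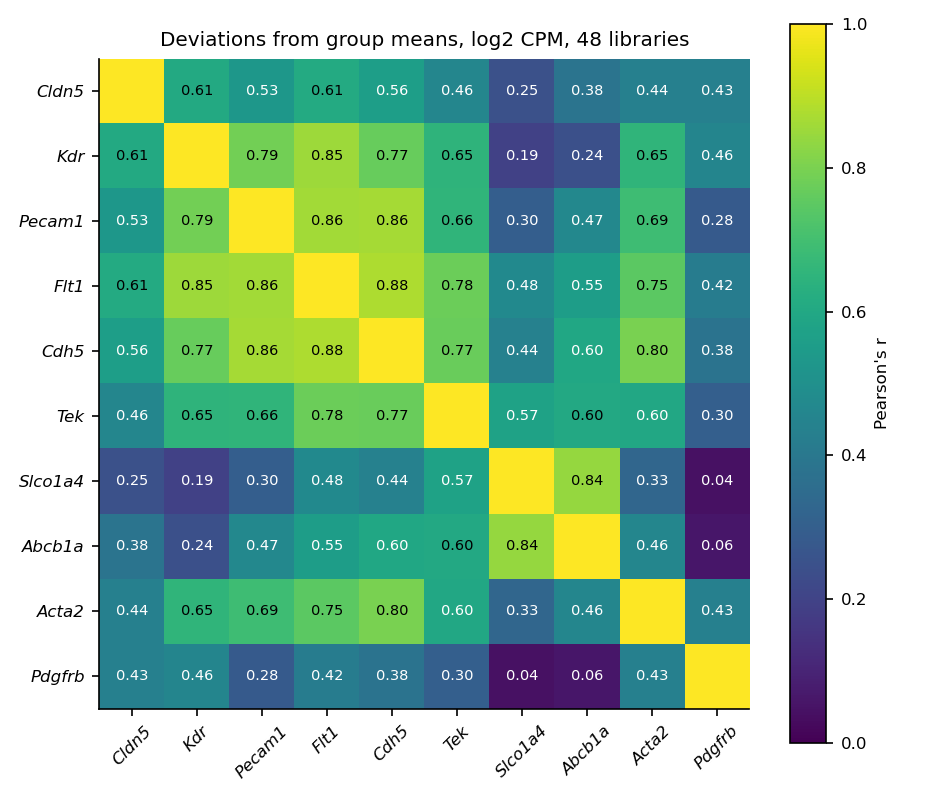
Pearson's r between the 10 genes, from deviations of log2 CPM from the group mean in 48 libraries (color scale from 0 to 1). Kdr, Pecam1, Flt1 and Cdh5 form a block of 0.77 to 0.88, Slco1a4 and Abcb1a a pair of 0.84, and Pdgfrb with the transporters is lowest (0.044 and 0.059).

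**Figure D5:**
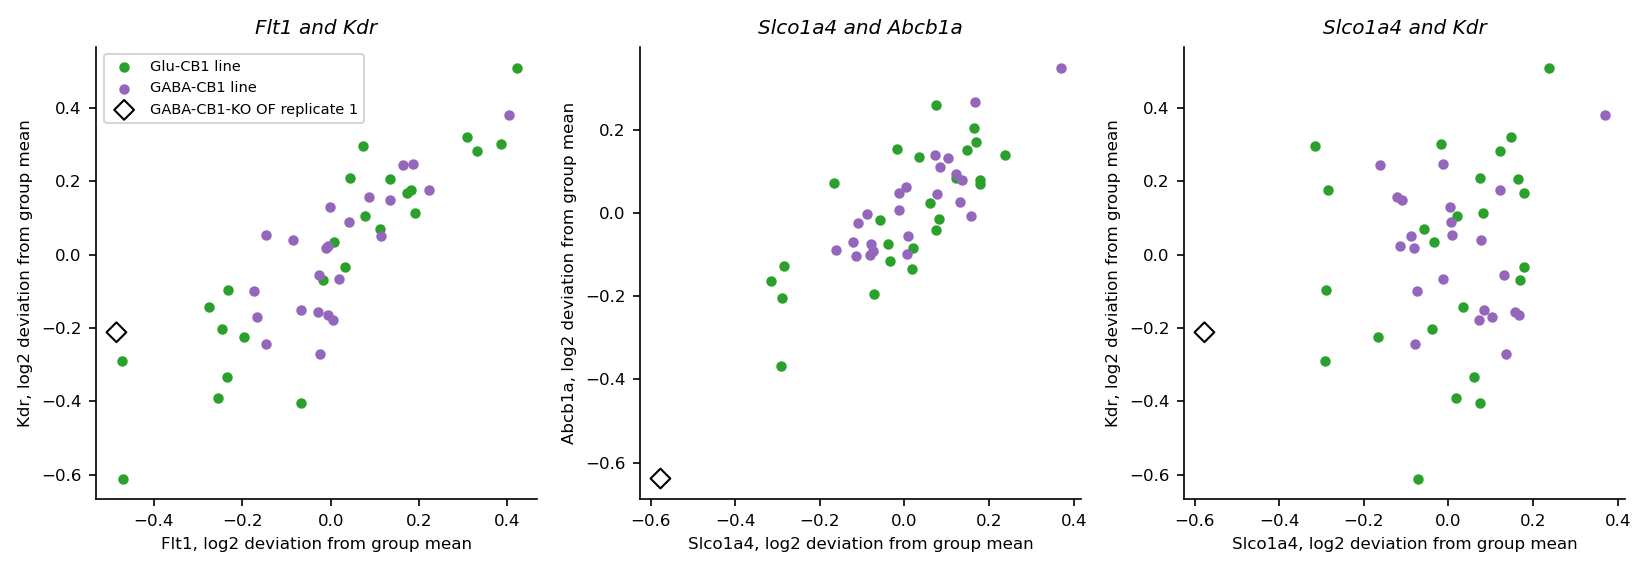
Deviations of log2 CPM from the group mean in each library for 3 pairs of genes, with the Glu-CB1 line in green, the GABA-CB1 line in purple and GABA-CB1-KO OF replicate 1 as an open diamond. Flt1 and Kdr (r = 0.85) and Slco1a4 and Abcb1a (r = 0.84) lie along a line, and Slco1a4 and Kdr (r = 0.19) do not.

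Over all genes, the profiles most like those of the members were, in most cases, of known vascular genes. Flt1 was most like Slco1c1, a thyroid hormone transporter of brain endothelium (r = 0.92 over 48 libraries), and Kdr was most like Flt1, then Slco1c1 (0.79). Tek was most like Podxl (0.82) and Adgrf5 (0.80), and Cdh5 was most like Flt1 and Pecam1, then Adgrf5 (0.84). Pecam1 followed Cdh5 and Flt1 with Ptprb, the VE-PTP phosphatase of endothelial cells (0.79). After its partner transporter, Slco1a4 was most like Cxcl12 (0.80), which encodes a chemokine, and Itm2a (0.77), and Abcb1a most like Clic5 (0.79) and Itm2a (0.78). The contractile genes Tagln (0.85) and Myl9 (0.80), both of smooth muscle, headed the list of Acta2. The profiles nearest to Cldn5 were those of Lsr (0.73), Atp2a3 (0.72) and Adrbk1 (0.70). Those nearest to Pdgfrb were Trim25 (0.68), Egfl7 (0.68) and Fnbp1 (0.67). For all genes, the median r with a member was between -0.034 and 0.0057. These are descriptions of the same libraries, with no test.

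Further genes of the vessel wall, from lists that do not include the members, were followed in the OF comparison. Of 35 other endothelial genes, 21 were lower and 14 higher after OF in the Glu-CB1 line (median log2 difference -0.039), and 2 of the 35 passed the test, both as lower, against 0.469% of all genes as lower (1.8% in either direction). They were Egfl7, a secreted vessel protein (-0.16, SE 0.036, adjusted p = 0.0176, edgeR), and Clec14a, an endothelial lectin (-0.30, SE 0.072, adjusted p = 0.0279). In the GABA-CB1 line 21 were lower and 14 higher (median -0.025), and Foxq1, a transcription factor of brain endothelium, was the 1 that passed (-0.37, SE 0.072, adjusted p = 0.0133), against 0.963% of all genes. Over both lines 23 were lower and 12 higher, and 6 of the 35 passed, 4 lower and 2 higher, against 9.12% of all genes, 3.23% as lower. Foxq1 fell by 0.35 (SE 0.060, adjusted p = 8.28e-05), Egfl7 by 0.17 (SE 0.030, adjusted p = 0.000189) and Clec14a by 0.29 (SE 0.064, adjusted p = 0.00197), while Mfsd2a, the lipid transporter of the barrier, rose by 0.24 (SE 0.063, adjusted p = 0.0103). Slc2a1, the glucose transporter GLUT1, and Sox7 were the other 2 that passed, the former higher (0.19) and the latter lower (-0.23), and were named after their values were seen, to complete the count.

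Among 18 other genes of pericytes and smooth muscle, 12 were lower in the Glu-CB1 line (median -0.045) and 18 in the GABA-CB1 line (median -0.083), with none passing. Over both lines 16 were lower, and 1 of the 18, Mcam, the cell adhesion molecule CD146, passed (-0.21, SE 0.064, adjusted p = 0.0281, edgeR), where 9.12% of all genes did. None of 17 ligands and co-receptors of VEGF, angiopoietin and PDGF signaling passed over both lines (7 higher, 10 lower, median -0.008, smallest adjusted p = 0.127). Of 14 genes of Wnt signaling and barrier induction, 3 passed over both lines, where 9.12% of all genes did. Reck, a co-receptor for Wnt7 ligands, fell by 0.14 (SE 0.033, adjusted p = 0.00356), Apcdd1, a Wnt inhibitor, fell by 0.13 (SE 0.035, adjusted p = 0.0100), and the receptor Fzd4 rose by 0.22 (SE 0.058, adjusted p = 0.0107, edgeR). In the comparisons of KO and CB1-WT mice, no gene of these 4 lists passed the test in either line or state.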

How the data were processed

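Bulk RNA-sequencing was done on the CA region of the hippocampus of 48 males, whose 8 groups (line, genotype and state) follow the sample labels. The authors amplified the RNA with NuGEN's Ovation system, used bbduk for trimming single-end reads, STAR 2.6.0a for alignment to mm10, and featureCounts 1.6.2 in its reverse-stranded mode for counting. Whether the kit marks strand is not given in the sources used here. The values they deposited are raw counts per gene, as whole numbers without normalization, of 25892654 to 34091080 per library. Counts have no molecular identifiers, and counting error is only part of the spread between mice.

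KO and CB1-WT, or OF and basal, libraries were compared with edgeR 4.0.16 (R 4.3.3), by its quasi-likelihood test on TMM-normalized counts, with genes filtered by filterByExpr (minimum count 10) and p-values adjusted by Benjamini-Hochberg over all genes tested. All 10 members passed this filter in each comparison. A gene passed the test at an adjusted p-value under 0.05. Each fit held no libraries beyond those compared. Standard errors were derived from the F statistic. Levels of single members and Cnr1 are in CPM, normalized by TMM over 48 libraries, and correlations used log2 CPM with a prior count of 2. Summed levels of gene lists, and the range of Alas2, are in CPM of the raw library total, without TMM. Only edgeR fits of the Glu-CB1 line were tested on simulated data, for KO against CB1-WT in basal mice and for OF against basal. The other fits, DESeq2 and the permutations were not tested in this way. The share of simulated differences recovered is not reported here.

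The members and the lists (other endothelial, pericyte and smooth muscle, fibroblast, VEGF and PDGF, Wnt and barrier, choroid plexus, blood, microglia, astrocyte, pyramidal and granule cell genes) were chosen with earlier results of these data known. Each of the 10 members is named. Where an unadjusted p was under 0.05, the value in every library is given for groups of 5 and the range and median for larger groups, and from the lists at most 4 genes per comparison that passed the test, those of smallest adjusted p, are named. Alternatives were DESeq2 1.42.0, its size factors, no filter, 10 counts in every library, the range of the animal numbers as covariate, the replicate number as a block, all 48 libraries in 1 fit, and each library left out. Permutations were run in Python 3.11.15 (scipy 1.17.1, pandas 2.3.3, numpy 2.4.6), and plots were drawn with matplotlib 3.10.9.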

Additional observations from a re-analysis of the deposited data

Results flagged for a closer look

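In 80 combinations of member and group, 2 values lay far from the others of their group by Dixon's criterion, where chance gives about 1 in 20. Both were of the smooth muscle gene Acta2. Glu-CB1-KO basal replicate 6 had 18.8 CPM of Acta2, and the other 6 mice of its group had 7.77 to 12.2. GABA-CB1-WT OF replicate 1 had 16.3 CPM of Acta2, and the other 6 mice had 10.3 to 12.4. The former library also held 18844 counts of Ttr. What sets these mice apart was not tested.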

How the results depend on the processing

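In 13 of the 14 comparisons by line, state or genotype, 0 of 10 members passed the test under every alternative run and without any single library. The range of the animal numbers was not run as covariate for CB1-WT mice of the lines. The fit of all 48 libraries was not run for the difference of the OF response between lines. For OF against basal in the Glu-CB1 line, where 0 passed in edgeR, 2 members (Cldn5 and Pdgfrb) passed in DESeq2, and 0 to 3 without single libraries. Over both lines, a comparison added after the data were seen, 2 members passed, 2 to 3 under the other alternatives and 1 to 3 without single libraries. The 10 members stayed lower after OF over both lines in all of these fits. With the range of the animal numbers as covariate, the median difference in the Glu-CB1 line was -0.086, with 9 of 10 lower. Leaving out the libraries with over 5000 Ttr counts was also chosen after the data were seen, and gave -0.088. The direction of the KO differences was less stable, with 0 to 9 of 10 members lower in Glu-CB1 basal mice, 3 to 10 in Glu-CB1 OF mice and 5 to 10 in GABA-CB1 OF mice when single libraries were left out. The median r of the endothelial pairs, 0.60, was 0.50 to 0.65 under 6 alternatives.

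The number of all genes that passed depended more on the tool and on single libraries. It was 2 to 12 (edgeR as reported 3) for KO in Glu-CB1 basal mice, 3 to 123 (41) in Glu-CB1 OF mice, 8 to 110 (37) in GABA-CB1 basal mice and 1 to 152 (3) in GABA-CB1 OF mice. For both states it was 24 to 106 (42) in the Glu-CB1 and 19 to 137 (55) in the GABA-CB1 line. For OF it was 117 to 487 (276) in the Glu-CB1 line, 31 to 270 (148) in the GABA-CB1 line and 942 to 1585 (1420) over both. For the difference of the KO effect between lines it was 29 to 79 (43) in the basal state and 50 to 200 (87) after OF. The highest of these counts came from DESeq2 in all but the both-state comparison of GABA-CB1 mice and the OF comparison over both lines, where it came without GABA-CB1-KO OF replicate 1 (137) and without Glu-CB1-KO basal replicate 3 (1585). The cause was not tested.

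Replicate numbers are shared between groups. Over 109 pairs of same-numbered libraries, the median correlation of deviations was -0.018, and in 0 of 20 pairs of groups were all above 0.1. Of the 109 pairs, 25 were above 0.1, up to 0.38. Libraries of different number were not compared, so whether the numbers pair the mice is not settled. With the replicate block, 0 members passed in the 14 comparisons and 2 over both lines, and the number of all genes that passed for OF was 255 in the Glu-CB1, 36 in the GABA-CB1 line and 1443 over both.

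A member had at least 211 counts in each library. How far depth or the spread between mice limits the standard errors was not tested.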

Other observations

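Lists of non-vascular cell types were read in the comparisons of KO and CB1-WT mice, too. In the Glu-CB1 line Neurod6, the gene also known as Nex whose regulatory elements drive Cre, was lower in the KO, by -0.66 (SE 0.069, adjusted p = 0.000510, edgeR) in the basal state and -0.78 (SE 0.049, adjusted p = 1.15e-06) after OF. Bok, a gene of the Bcl-2 family from the pyramidal list, was lower in GABA-CB1-KO basal mice, by -0.52 (SE 0.066, adjusted p = 0.00328, edgeR). No gene of the choroid plexus, fibroblast, microglia, astrocyte or granule cell lists passed in these comparisons, nor did Alas2.

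Within GABA-CB1-KO OF replicate 1, where all 8 endothelial members were lowest of the group, 8 of 18 other pericyte and smooth muscle genes, 4 of 10 fibroblast genes, 7 of 14 Wnt and barrier genes, 6 of 17 VEGF, angiopoietin and PDGF genes, 4 of 10 pyramidal cell genes, 3 of 6 granule cell genes, 3 of 10 microglial genes, 1 of 9 astrocyte genes and 0 of 10 choroid plexus genes were lowest of the group, as was Alas2. The median log2 difference to the other mice was -0.40 for 35 other endothelial genes, -0.26 for the other pericyte and smooth muscle genes, -0.13 for fibroblast genes, -0.14 for Wnt and barrier genes, and -0.059 for VEGF, angiopoietin and PDGF genes. It was -0.42 for choroid plexus genes, -0.19 for granule cell and -0.065 for pyramidal cell genes, 0.12 for microglial and 0.11 for astrocyte genes, and 0.015 for all genes tested.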
